A study of Mus musculus with 6 samples.

Results

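The 41 genes described here make the machinery of mitosis: the kinases and cyclins that start it, the spindle, the kinetochores, the spindle checkpoint and the ring that parts the daughter cells. They were taken by name from a list of G2/M, spindle, kinetochore and cytokinesis genes, and all 41 were found among the 27179 genes counted in each library. The libraries came from livers of C57BL/6 mice, 3 labelled Mettl3-deficient and 3 labelled wild type, which share the strain, the tissue and the protocol. Mettl3 encodes the methyltransferase that places N6-methyladenosine on RNA. The sources used here give neither age nor sex, nor the way in which Mettl3 was made deficient or the cells that lack it. The labels do not say whether each library came from a separate animal. Y-linked counts, given below, were present in some libraries of each group and absent from others, so neither group was drawn from a single animal. The p-values measure only the spread between these samples, part of which may be technical.

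Most hepatocytes of an adult liver rest outside the cell cycle and re-enter it after injury or loss of tissue. A cell that divides makes the transcripts of mitosis in G2 and M phase, when the cyclin B and Cdk1 kinase is switched on, condensed chromosomes are attached to spindle microtubules through kinetochores, and the anaphase-promoting complex then destroys cyclin B and securin. Many of these genes are known to be held off in resting cells by the DREAM complex, in which the MuvB proteins contact a short promoter element called CHR (TTTGAA or TTTAAA), and to be switched on through the same element by B-MYB and FOXM1, commonly together with CCAAT boxes bound by NF-Y.

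Depth was 34576824 to 36025772 counts in Mettl3-deficient libraries and 31960205 to 34297553 counts in wild-type libraries. Levels are given as CPM, counts scaled to a common library size, after TMM normalisation, which corrects for the make-up of each library. Mettl3 itself had 5.96, 6.60 and 4.94 CPM in Mettl3-deficient livers, against 13.4, 14.3 and 12.1 CPM in wild-type livers (log2 fold change -1.18 ± 0.20 SE, edgeR adjusted p = 0.00797), with no overlap. Wild type replicate 1 stood apart from the other wild-type libraries: the chi-square per degree of freedom over genes was 309 and 303 against them, and 17.1 between those. Between Mettl3-deficient libraries it was 130 for replicates 1 and 2, 90.4 for 1 and 3 and 246 for 2 and 3. Y-linked genes had 4747, 5031 and 0 counts in Mettl3-deficient replicates 1, 2 and 3, against 6508, 0 and 0 counts in wild type replicates 1, 2 and 3. Of genes with 1 to 10 counts, 71.8% to 74.3% in Mettl3-deficient and 72.7% to 76.2% in wild-type libraries had an even count, so the number of independent fragments may be lower than the count, and 1 count was worth 0.0221 to 0.0253 CPM in Mettl3-deficient and 0.0354 to 0.037 CPM in wild-type libraries.

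The mitosis and spindle genes were higher in Mettl3-deficient livers. In each of the 41, all 3 Mettl3-deficient libraries lay above all 3 wild-type libraries, and 32 rose and 0 fell at an edgeR adjusted p under 0.05. Over all 14380 genes tested, 13.3% rose and 10.5% fell, and all 3 Mettl3-deficient libraries lay above all 3 wild-type libraries in 23.9%. The median log2 fold change of the 41 was 2.72, a 6.59-fold difference, against 0.01 for all genes tested. Without wild type replicate 1, the median of the 41 was 2.31. All 41 differed by more than 2-fold upward, as did 13.2% of all genes tested. The summed level of the 41 was 471 CPM, 250.1 CPM and 290 CPM in Mettl3-deficient livers, against 26.1, 70.5 and 76.8 CPM in wild-type livers. In bulk RNA, more dividing cells and more of these transcripts in each cell cannot be told apart.

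The called genes ran from the 2.10-fold of Cenpa, the histone variant that marks centromeres, to the 18.1-fold of Ccnb1, cyclin B1. The 9 genes that did not pass the test were Melk, Aurkb, Cenpf, Kif4, Kif23, Racgap1, Ect2, Anln and Cep55. Their folds, 2.66 to 7.44, lay within the range of the called genes, their adjusted p-values were 0.0501 to 0.108, and the median standard error of their log2 fold changes was 0.86, against 0.61 for the called genes. The count of 32 rested in part on single libraries. It was 14, 23 and 24 without Mettl3-deficient replicate 1, 2 or 3, and 35, 18 and 21 without wild type replicate 1, 2 or 3. In every such fit all 41 log2 fold changes stayed above 0, and 13 genes were called in all of them: Ccnb2, Aurka, Cdca3, Foxm1, Cdca8, Bub1, Bub1b, Mad2l1, Nuf2, Hmmr, Ckap2l, Kif20a and Prc1.

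**Figure D1:**
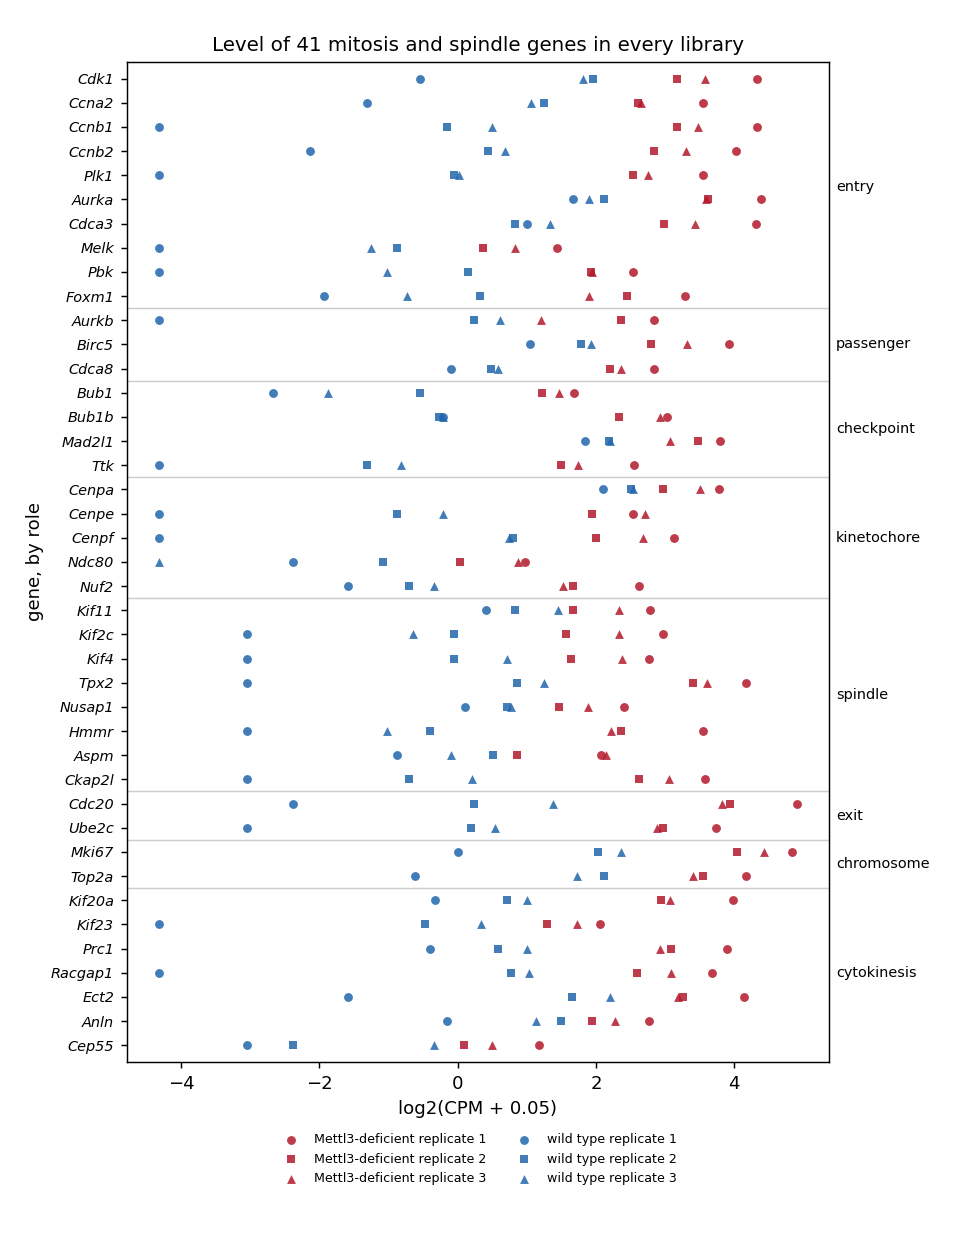
Level of each of the 41 genes in every library, as log2(CPM + 0.05) on the horizontal axis, with genes grouped by role; points are single libraries of Mettl3-deficient and wild-type livers. All Mettl3-deficient points of a gene lie to the right of its wild-type points, and wild type replicate 1 is the lowest wild-type library in 38 of the 41 genes.

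The sequence around the start sites of these genes was not used to choose them. RefSeq windows on GRCm38.p6, the same build as mm10, from 250 bases before to 50 bases after the start were at hand for 35 of the 41 genes (38 windows), leaving out Aurkb, Ccna2, Foxm1, Kif20a, Pbk and Tpx2. On either strand, with matches allowed to overlap, TTTGAA or TTTAAA was present in 30 of the 35, or 85.7%, against 22.9% of 11073 tested genes with a window. CCAAT was present in 26, or 74.3%, against 42.6%. Both a CCAAT and a TTTGAA or TTTAAA were present in 25, or 71.4%, against 9.21%. An E2F-like motif, TTTGGCGC or TTTCGCGC, was present in 1, or 2.86%, against 1.72%. The TTTGAA matches lay close to the start, with the first base of 32 of 38 at or after position -100 and a median of +4, whereas CCAAT matches had a median first base of -71. Matches were counted per window, so those of Ect2, Prc1 and Cep55, whose windows overlap, were counted more than once.

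The 150 bases before the start are shown for 5 called genes, those with the largest fold among the 11 called genes that hold both motifs in this stretch. They show the CCAAT box and the TTTGAA or TTTAAA element in the promoters of these 5 genes. Each runs 5′ to 3′ on the gene's strand and ends at the base before the start, with the CCAAT box (ATTGG where it lies on the other strand), the TTTGAA element (TTCAAA where it lies on the other strand) and its variant TTTAAA in capitals. Ccnb1 is at chr13:100786487-100786636 on the minus strand, Cdc20 at chr4:118437344-118437493 on the minus strand, Ckap2l at chr2:129297213-129297362 on the minus strand, Plk1 at chr7:122159285-122159434 on the plus strand and Ube2c at chr2:164769779-164769928 on the plus strand.
Ccnb1: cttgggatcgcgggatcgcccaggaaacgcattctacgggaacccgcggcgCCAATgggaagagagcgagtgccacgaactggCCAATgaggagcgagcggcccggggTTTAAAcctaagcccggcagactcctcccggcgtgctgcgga
Cdc20: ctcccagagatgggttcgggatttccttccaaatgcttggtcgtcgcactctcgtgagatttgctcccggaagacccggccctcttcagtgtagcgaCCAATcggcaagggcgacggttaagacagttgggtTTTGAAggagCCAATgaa
Ckap2l: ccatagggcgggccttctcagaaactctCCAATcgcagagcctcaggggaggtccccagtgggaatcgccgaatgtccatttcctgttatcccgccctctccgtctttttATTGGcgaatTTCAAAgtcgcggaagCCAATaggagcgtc
Plk1: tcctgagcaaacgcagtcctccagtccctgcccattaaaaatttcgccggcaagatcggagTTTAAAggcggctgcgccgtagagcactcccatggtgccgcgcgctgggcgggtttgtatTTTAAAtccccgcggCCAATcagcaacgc
Ube2c: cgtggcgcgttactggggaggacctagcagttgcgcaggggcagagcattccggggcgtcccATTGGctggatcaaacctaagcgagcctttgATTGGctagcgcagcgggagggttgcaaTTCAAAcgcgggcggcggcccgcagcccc

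The same stretch is also shown for the 2 called genes with the smallest fold among the 5 called genes that hold neither motif there. These are Mad2l1 at chr6:66535071-66535220 and Nusap1 at chr2:119618148-119618297, both on the plus strand, and neither holds a capital. The gap in fold between the genes shown with and without motifs comes from this choice. Birc5, Nuf2 and Ndc80, the others with neither motif there, rose 3.48-fold, 7.54-fold and 8.02-fold.
Mad2l1: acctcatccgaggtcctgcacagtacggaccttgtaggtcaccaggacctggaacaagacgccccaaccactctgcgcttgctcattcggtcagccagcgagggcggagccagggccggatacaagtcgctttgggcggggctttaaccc
Nusap1: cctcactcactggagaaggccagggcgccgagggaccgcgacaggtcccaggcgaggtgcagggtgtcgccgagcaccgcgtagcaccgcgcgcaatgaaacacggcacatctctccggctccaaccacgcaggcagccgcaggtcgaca

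In the stretches shown, Ccnb1 and Plk1 carried TTTAAA and Cdc20, Ckap2l and Ube2c carried TTTGAA. The whole window of Plk1 also held a TTTGAA, which lay after the start and so outside the stretch shown. A motif match is a description of letters, and no match says only that these letters are not in this window. The 25 genes with both a CCAAT and a TTTGAA or TTTAAA in the whole window had a median log2 fold change of 2.72, with 20 called, and the 10 genes with a window and without that pair had a median of 2.48, with 7 called. Among all tested genes, the 1020 with that pair had a median log2 fold change of 0.04 and 14.8% (151) rose. The 10053 without it had a median of 0.01 and 13.3% (1337) rose. Both shares include the mitosis and spindle genes, which gave 20 of the 151 and 7 of the 1337. Apart from these genes, the share that rose was no higher with the pair than without it.

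Of the 10 kinases, cyclins and regulators of mitotic entry, 9 rose, with a median log2 fold change of 2.91. Cdk1, the kinase that drives entry (chr10:69335146-69352912), had 20.1, 8.97 and 11.8 CPM in Mettl3-deficient livers, against 0.639, 3.82 and 3.48 CPM in wild-type livers. Mettl3-deficient replicate 1 was the highest library and wild type replicate 1 the lowest, and the groups did not overlap (log2 fold change 2.37 ± 0.61 SE, edgeR adjusted p = 0.0313). Its partner Ccnb1, cyclin B1 (chr13:100778739-100786486), had 20.1, 8.99 and 11.04 CPM in Mettl3-deficient livers, against 0, 0.849 and 1.37 CPM in wild-type livers. This was the largest fold of the 41 (log2 fold change 4.18 ± 0.93 SE, edgeR adjusted p = 0.0215). The count of 0 in wild type replicate 1 allows up to 0.107 CPM by counting error alone, if each count was an independent fragment. Ccnb2, cyclin B2 (chr9:70407689-70421554), had 16.3, 7.13 and 9.80 CPM in Mettl3-deficient livers, against 0.178, 1.31 and 1.55 CPM in wild-type livers, again with wild type replicate 1 lowest (log2 fold change 3.45 ± 0.67 SE, edgeR adjusted p = 0.0125). Ccna2, cyclin A2, which acts in S phase and G2, rose 5.06-fold (adjusted p = 0.0308).

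Plk1, the polo kinase that activates cyclin B and Cdk1 and matures centrosomes, had 11.6, 5.78 and 6.66 CPM in Mettl3-deficient livers, against 0, 0.919 and 0.961 CPM in wild-type livers (log2 fold change 3.67 ± 0.88 SE, edgeR adjusted p = 0.0253). Aurka, the aurora kinase of the spindle poles (chr2:172356190-172370886), had 20.9, 12.2 and 12.0 CPM in Mettl3-deficient livers, against 3.13, 4.28 and 3.70 CPM in wild-type livers. Its wild-type libraries were close together, and its log2 fold change of 2.02 had a standard error of 0.28 (edgeR adjusted p = 0.00459). Foxm1, the transcription factor of G2 and M phase genes, had 9.71, 5.40 and 3.67 CPM in Mettl3-deficient livers, against 0.213, 1.20 and 0.555 CPM in wild-type livers (log2 fold change 3.24 ± 0.62 SE, edgeR adjusted p = 0.0118). Cdca3, a trigger of entry that promotes the removal of the Cdk1 inhibitor Wee1, rose 6.25-fold and Pbk, a mitotic kinase, rose 8.77-fold (adjusted p = 0.00511 and 0.0378). Melk, a kinase of proliferating cells, averaged 1.87 CPM in Mettl3-deficient livers and 0.288 CPM in wild-type livers and was not called (adjusted p = 0.0553), though it was without wild type replicate 1.

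Within this group Ccnb2, Aurka, Cdca3 and Foxm1 were called in all 16 alternative fits. The calls of Cdk1, Ccna2, Ccnb1, Plk1 and Pbk were lost without Mettl3-deficient replicate 1 and without replicate 2, and those of Cdk1 and Pbk also without replicate 3; Cdk1, Ccna2, Ccnb1 and Plk1 lost theirs without wild type replicate 2, and Cdk1, Ccna2, Plk1 and Pbk without replicate 3 (adjusted p at most 0.118 over the alternatives).

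The chromosomal passenger complex corrects faulty attachments through Aurora B kinase. Of its 3 listed subunits, Birc5, survivin (chr11:117849237-117855743), had 15.2, 6.93 and 9.88 CPM in Mettl3-deficient livers, against 2.02, 3.40 and 3.77 CPM in wild-type livers (log2 fold change 1.80 ± 0.37 SE, edgeR adjusted p = 0.0141). That call was lost without Mettl3-deficient replicate 1 (adjusted p = 0.0531). Cdca8, borealin, had 7.10, 4.54 and 5.12 CPM in Mettl3-deficient livers, against 0.888, 1.34 and 1.44 CPM in wild-type livers (log2 fold change 2.19 ± 0.33 SE, edgeR adjusted p = 0.00561). Aurkb, the kinase itself, had 7.10, 5.11 and 2.26 CPM in Mettl3-deficient livers, against 0, 1.13 and 1.48 CPM in wild-type livers. The groups did not overlap, but Mettl3-deficient replicate 3 came near the wild-type libraries and Aurkb was not called (log2 fold change 2.47 ± 0.98 SE, edgeR adjusted p = 0.108); without wild type replicate 1 it was.

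All 4 spindle checkpoint genes, which delay anaphase until chromosomes are attached, rose. Bub1b, the BubR1 protein of the checkpoint complex (chr2:118598202-118641592), had 8.14, 5.004 and 7.55 CPM in Mettl3-deficient livers, against 0.817, 0.778 and 0.813 CPM in wild-type livers. It was the 1 gene of the 41 in which wild type replicate 1 was above the mean of the other wild-type libraries, and it had the smallest adjusted p of the 41 (log2 fold change 3.10 ± 0.31 SE, edgeR adjusted p = 0.00146). Bub1, the kinase that recruits the checkpoint to kinetochores, had 3.15, 2.28 and 2.71 CPM in Mettl3-deficient livers, against 0.107, 0.637 and 0.222 CPM in wild-type livers (log2 fold change 3.06 ± 0.59 SE, edgeR adjusted p = 0.012). Ttk, the Mps1 kinase that starts checkpoint signalling, rose 13.6-fold (adjusted p = 0.0168), a call lost without Mettl3-deficient replicate 1 or wild type replicate 2. Mad2l1, the Mad2 inhibitor of Cdc20, had 13.9, 11.1 and 8.36 CPM in Mettl3-deficient livers, against 3.55, 4.53 and 4.55 CPM in wild-type livers (log2 fold change 1.40 ± 0.26 SE, edgeR adjusted p = 0.0102).

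Of the 5 centromere and kinetochore genes, 4 rose. Cenpe, the kinetochore motor (chr3:135212563-135273540), had 5.73, 3.81 and 6.46 CPM in Mettl3-deficient livers, against 0, 0.495 and 0.813 CPM in wild-type livers (log2 fold change 3.61 ± 0.83 SE, edgeR adjusted p = 0.0211). Nuf2 and Ndc80, partners in the complex that grips microtubules, rose 7.54-fold and 8.02-fold (adjusted p = 0.00803 and 0.04). Ndc80 had 0.974 to 1.91 CPM in Mettl3-deficient livers and 0 to 0.424 CPM in wild-type livers, the 0 being wild type replicate 3. Cenpa had 13.7, 7.82 and 11.3 CPM in Mettl3-deficient livers, against 4.26, 5.62 and 5.73 CPM in wild-type livers (log2 fold change 1.07 ± 0.27 SE, edgeR adjusted p = 0.0259), the smallest fold of the 41. Cenpf, a large protein of the outer kinetochore, had 8.74, 3.96 and 6.36 CPM in Mettl3-deficient livers, against 0, 1.70 and 1.63 CPM in wild-type livers, and was not called (adjusted p = 0.1); it was called without wild type replicate 1 and with scaling by library size alone. Nuf2 was called in all 16 alternatives. The calls of Cenpa, Cenpe and Ndc80 were lost without Mettl3-deficient replicate 1, that of Cenpe also without replicate 2, that of Cenpa without replicate 3 and that of Ndc80 without either; Cenpa and Cenpe lost theirs without wild type replicate 2, Cenpa and Ndc80 without replicate 3 and Ndc80 without replicate 1 (adjusted p at most 0.12 over the alternatives).

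Of the 8 spindle motors and microtubule binders, 7 rose. Hmmr, a spindle assembly factor and hyaluronan receptor (chr11:40701388-40733464), had 11.7, 5.07 and 4.59 CPM in Mettl3-deficient livers, against 0.071, 0.707 and 0.444 CPM in wild-type livers (log2 fold change 4.11 ± 0.69 SE, edgeR adjusted p = 0.00817). Ckap2l, a protein of the spindle and its poles, had 11.9, 6.13 and 8.31 CPM in Mettl3-deficient livers, against 0.071, 0.566 and 1.11 CPM in wild-type livers (log2 fold change 3.91 ± 0.70 SE, edgeR adjusted p = 0.00961). Both were called in all 16 alternatives, and in both the lowest wild-type library was replicate 1. Tpx2, the activator of Aurora A on spindle microtubules, rose 9.77-fold, and Kif2c, a kinesin that takes microtubules apart at centromeres, rose 9.84-fold (adjusted p = 0.0311 and 0.0169).

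Smaller folds, of 2.62 to 3.72, were measured for 3 called spindle genes. Kif11, the Eg5 motor that pushes the poles apart, had 6.85, 3.14 and 4.99 CPM in Mettl3-deficient livers, against 1.28, 1.73 and 2.70 CPM in wild-type livers (2.62-fold, edgeR adjusted p = 0.0412). Nusap1, which bundles microtubules near chromatin, rose 2.71-fold, and Aspm, which holds spindle poles together and is mutated in human microcephaly, rose 3.72-fold (adjusted p = 0.0275 and 0.0316). Kif4, the chromokinesin Kif4a, had 6.73, 3.06 and 5.17 CPM in Mettl3-deficient livers, against 0.071, 0.919 and 1.59 CPM in wild-type livers and was not called (adjusted p = 0.0501), though it was in 7 of the 16 alternatives, among them the fit without wild type replicate 1. The calls of Kif11, Kif2c, Tpx2, Nusap1 and Aspm were lost without Mettl3-deficient replicate 1, Tpx2 also without replicate 2 and Kif11, Tpx2 and Aspm without replicate 3. Without wild type replicate 1 the calls of Kif11, Nusap1 and Aspm were lost, without replicate 2 those of Kif11, Tpx2 and Nusap1, and without replicate 3 those of all 5 (adjusted p at most 0.15 over the alternatives).

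Both genes of mitotic exit rose. Cdc20, the activator of the anaphase-promoting complex (chr4:118432901-118437343), had 29.9, 15.3 and 14.1 CPM in Mettl3-deficient livers, against 0.142, 1.13 and 2.55 CPM in wild-type livers (log2 fold change 3.96 ± 0.80 SE, edgeR adjusted p = 0.0167). Ube2c, the ubiquitin-conjugating enzyme of that complex, had 13.3, 7.77 and 7.32 CPM in Mettl3-deficient livers, against 0.071, 1.10 and 1.41 CPM in wild-type livers (log2 fold change 3.46 ± 0.74 SE, edgeR adjusted p = 0.0173). Both calls were lost without Mettl3-deficient replicate 1 and without wild type replicate 2 (adjusted p at most 0.0753 over the alternatives). Of the chromosome genes, Mki67, which coats mitotic chromosomes and is the common proliferation marker Ki-67 (chr7:135689784-135716450), had 28.6, 16.4 and 21.5 CPM in Mettl3-deficient livers, against 0.959, 4.03 and 5.10 CPM in wild-type livers (log2 fold change 2.72 ± 0.55 SE, edgeR adjusted p = 0.0149). Top2a, the topoisomerase that untangles sister chromatids, rose 4.93-fold (adjusted p = 0.032). The call of Mki67 was lost without wild type replicate 2 (adjusted p = 0.0527), and that of Top2a without any 1 library other than wild type replicate 1 (at most 0.0991 over the alternatives).

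Of the 7 genes of the central spindle and cytokinesis, 2 rose, and in all 7 the groups did not overlap. Prc1, which bundles the microtubules of the central spindle (chr7:80294445-80316259), had 14.9, 8.46 and 7.52 CPM in Mettl3-deficient livers, against 0.710, 1.45 and 1.96 CPM in wild-type livers (log2 fold change 2.90 ± 0.44 SE, edgeR adjusted p = 0.00583). Kif20a, the kinesin that carries the passenger complex to the midzone, rose 7.39-fold (adjusted p = 0.00611), and both were called in all 16 alternatives. Racgap1 and Kif23, which together form the centralspindlin complex, each had 0 counts in wild type replicate 1. Racgap1 had 12.8, 5.98 and 8.46 CPM in Mettl3-deficient livers, against 0, 1.66 and 1.996 CPM in wild-type livers (adjusted p = 0.0727). Kif23 had 4.12, 2.39 and 3.27 CPM in Mettl3-deficient livers, against 0, 0.672 and 1.22 CPM in wild-type livers (adjusted p = 0.092). Ect2, the exchange factor that activates RhoA at the furrow, had 17.6, 9.57 and 9.04 CPM in Mettl3-deficient livers, against 0.284, 3.11 and 4.55 CPM in wild-type livers (adjusted p = 0.0848). Without wild type replicate 1, Racgap1, Kif23 and Ect2 were called. Anln, the anillin scaffold of the contractile ring, had 3.79 to 6.73 CPM in Mettl3-deficient livers and 0.852 to 2.76 CPM in wild-type livers (adjusted p = 0.0548). Cep55, a midbody protein, had 1.018 to 2.21 CPM in Mettl3-deficient livers and 0.071 to 0.739 CPM in wild-type livers (adjusted p = 0.0706), and was called without wild type replicate 3.

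**Figure D2:**
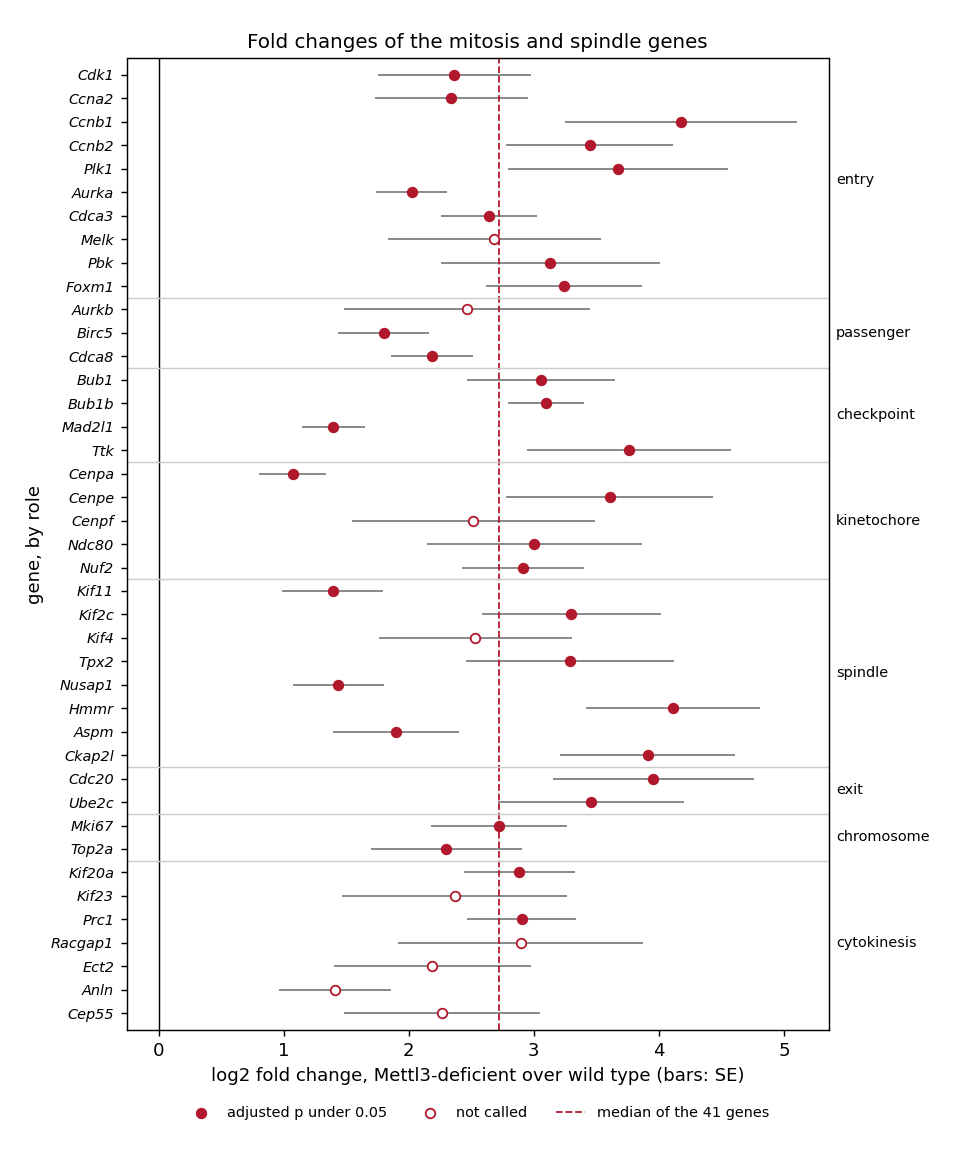
Log2 fold change (Mettl3-deficient over wild type) of the 41 genes by role, with bars of 1 SE; filled points are called at an edgeR adjusted p under 0.05. The dashed line is the median of the 41 genes, 2.72. The values run from 1.07 for Cenpa to 4.18 for Ccnb1, and 5 of the 9 genes without a call are in cytokinesis.

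Levels between genes were compared per kilobase of exon, with the exons of all annotated transcripts of a gene merged. The ranks below hold for this choice of length. Cdc20 was the most abundant of the 41 in Mettl3-deficient livers at a mean of 10.6 CPM per kilobase, against 0.683 CPM per kilobase in wild-type livers, where it ranked 5. Ccnb2 and Aurka followed, with 7.22 and 5.94 CPM per kilobase in Mettl3-deficient livers, against 0.662 and 1.46 CPM per kilobase in wild-type livers. Aurka was the most abundant of the 41 in wild-type livers by this measure. Without division by length, its wild-type mean of 3.7 CPM was below those of Cenpa (5.2 CPM) and Mad2l1 (4.2 CPM). Ccnb1, which ranked 25 in wild-type livers at 0.175 CPM per kilobase, ranked 7 in Mettl3-deficient livers at 3.17 CPM per kilobase. The lowest in Mettl3-deficient livers was Ndc80, at 0.239 CPM per kilobase, against 0.0291 CPM per kilobase in wild-type livers. Exons of Kif20a overlap the opposite-strand gene Cdc23 over 29.3% of their bases, those of Ube2c overlap Tnnc2 over 22.8%, those of Kif4 overlap Pdzd11 over 15.1% and those of Ccna2 overlap Exosc9 over 12.5%. The sources used here do not say whether the counting used strand; Tnnc2 had 0 counts in every library. Ccnb1, Ccnb2 and Kif4 have named pseudogene copies, so their values are uncertain to that extent.

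The Mettl3-deficient libraries differed among themselves. Replicate 1 held the highest Mettl3-deficient value in 39 of the 41 genes and replicate 3 in the other 2. Its level was a median 1.95 times that of replicate 2, from 1.25 for Mad2l1 to 2.68 for Kif2c, and above it in all 41. Among wild-type livers, replicate 1 was the lowest in 38 genes, at a median of 0.161 times the mean of the other libraries, and 10 of the 41 had 0 counts there: Ccnb1, Plk1, Melk, Pbk, Aurkb, Ttk, Cenpe, Cenpf, Kif23 and Racgap1. Of these 10, 5 were called and 5 were not.

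The library type by Y-linked counts was unequal between the groups, so the genes were also compared within each type. In libraries without Y-linked counts, Mettl3-deficient replicate 3 lay above wild type replicates 2 and 3 in all 41 genes, by a median of 2.11 on the log2 scale, from 0.79 for Aurkb to 3.32 for Ccnb1, and by more than 2-fold in 37. In libraries with Y-linked counts, Mettl3-deficient replicates 1 and 2 lay above wild type replicate 1 in all 41. With 3 libraries in each type no test was made within them, and the difference between the types was not tested. With the type as a covariate across the 6 libraries, 32 of the 41 rose, though not the same 32. Pbk and Ndc80 lost their calls, and Kif4 and Anln gained 1 each.

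Other genes of mitosis were counted in the same way. Of 123 further genes in 9 lists, all tested, 42 rose, 8 fell and 73 were not called, with a median log2 fold change of 0.84. Over all genes tested, 13.3% rose and 10.5% fell. The lists and their members had been drawn up with results of these libraries known. The 42 were 16 without Mettl3-deficient replicate 1, 27 without wild type replicate 2, and 69 with scaling by library size alone, under which the median over all genes tested was 0.49. Among other spindle motors and microtubule genes, 12 of 20 rose and 0 fell. Gtse1, which stabilises microtubules and restrains p53 in G2, averaged 9.31 ± 2.20 CPM in Mettl3-deficient livers and 0.6 ± 0.275 CPM in wild-type livers (SD, n = 3 each; edgeR adjusted p = 0.00187). Haus8, a subunit of the augmin complex, and the kinesin Kif20b rose 3.84-fold and 5.13-fold (adjusted p = 0.00612 and 0.00857). Of 14 other checkpoint, passenger and cohesion genes, 9 rose and 1, Mad1l1, fell. Mad2l1bp, the p31comet protein that turns the checkpoint off, averaged 21.9 ± 2.31 CPM in Mettl3-deficient livers and 6.49 ± 0.953 CPM in wild-type livers (SD, n = 3 each; edgeR adjusted p = 0.00183). Spdl1, which brings dynein to kinetochores, and Sgo2a, a shugoshin that protects cohesion, rose 12.1-fold and 11.9-fold (adjusted p = 0.00408 and 0.00484).

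Of 26 other kinetochore and centromere genes, 6 rose and 0 fell, among them Ska3 (10.52-fold, edgeR adjusted p = 0.00935) and Cenpt (3.16-fold, 0.0111). Of 14 other mitotic entry genes, 4 rose, and the centrosomal kinase Nek2 averaged 20.9 ± 6.80 CPM in Mettl3-deficient livers and 2.90 ± 1.47 CPM in wild-type livers (SD, n = 3 each; edgeR adjusted p = 0.00494). Cdca2 and the phosphatase Cdkn3 rose 7.78-fold and 8.54-fold (adjusted p = 0.00712 and 0.0238), and Depdc1a was the fourth. Of 8 condensin genes, 4 rose, Ncapg among them, and 1, Ncapd3, fell; Smc2, Ncaph and Ncapg2 rose 2.68-fold, 3.95-fold and 3.55-fold (adjusted p = 0.0116, 0.0162 and 0.0184), and 0 of the 8 rose without Mettl3-deficient replicate 1. Of 7 centriole duplication genes, 3 rose: Stil (5.41-fold, edgeR adjusted p = 0.0136), the kinase Plk4 (3.46-fold, 0.0225) and Cep192 (1.88-fold, 0.0439), and 0 did without Mettl3-deficient replicate 1. Of 7 other cytokinesis genes, Iqgap3 and Arhgap11a rose 11.9-fold and 4.995-fold (adjusted p = 0.0118 and 0.027) and Spast, which severs microtubules at the midbody, fell by 0.70 on the log2 scale (adjusted p = 0.0138). Of the called genes named from these 7 lists, Ska3, Cenpt, Mad2l1bp, Mad1l1, Spdl1, Sgo2a, Gtse1, Haus8, Kif20b, Nek2, Cdca2 and Iqgap3 were called in all 16 alternatives. The other 12 lost their calls without Mettl3-deficient replicate 1, and all of these but Smc2, Plk4 and Depdc1a without wild type replicate 2. Ncapg and Ncapd3 lost theirs in each of the 6 fits that leave out a library. With library size alone, Spast and Ncapd3 were not called. Plk4, Cep192 and Depdc1a were also lost without wild type replicate 3, Plk4, Cep192 and Arhgap11a without Mettl3-deficient replicate 2, and Cep192 and Arhgap11a without Mettl3-deficient replicate 3 (adjusted p at most 0.529 over the alternatives, for Ncapd3).

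Of the 15 subunits and partners of the anaphase-promoting complex, with which Cdc20 and Ube2c work, 0 rose and 2 fell, and the median log2 fold change was -0.11, or 0.36 with scaling by library size alone. Anapc16 and Anapc13 fell by 0.86 and by 0.72 on the log2 scale (adjusted p = 0.0122 and 0.0369), neither of them called with library size alone and Anapc13 in 1 of the 6 fits that leave out a library, and Anapc2 had a log2 fold change of 0.40 (adjusted p = 0.071). Of 12 genes of the DREAM and MuvB complexes, 2 rose and 3, Tfdp2, Rbbp4 and E2f5, fell, with a median log2 fold change of -0.29, or 0.20 with library size alone. Over all genes tested, 13.3% rose and 10.5% fell, and the counts of these short lists were not tested against those shares. Rbl1, the pocket protein p107, and Tfdp1, the E2F partner, rose 2.60-fold and 1.79-fold (adjusted p = 0.0133 and 0.0287). Tfdp2, a second E2F partner, had 9.93, 6.09 and 18.1 CPM in Mettl3-deficient livers, against 23.7, 30.9 and 29.5 CPM in wild-type livers (log2 fold change -1.30 ± 0.36 SE, edgeR adjusted p = 0.037). Tfdp2, Rbbp4 and E2f5 were not called with library size alone, nor were Rbbp4 and E2f5 without Mettl3-deficient replicate 3. Without wild type replicate 2, without replicate 3 and without Mettl3-deficient replicate 1, 0 of the 12 were called, and without Mettl3-deficient replicate 2 only Rbl1 was. TTTGAA or TTTAAA was present in 49 and CCAAT in 59 of the 102 other mitosis genes with a window, and both in 33; for the 14 anaphase-promoting complex genes with a window the counts were 2, 5 and 0.

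Several abundant mitosis genes, chosen after their values were seen, were not called. Pttg1, securin, had 20.03, 16.6 and 19.99 CPM in Mettl3-deficient livers, against 37.4, 27.9 and 23.2 CPM in wild-type livers, the opposite order to the 41 genes (log2 fold change -0.65 ± 0.20 SE, edgeR adjusted p = 0.0534). Spc24, a subunit of the same complex as Ndc80 and Nuf2, had 21.9, 10.9 and 16.6 CPM in Mettl3-deficient livers, against 16.2, 18.2 and 17.5 CPM in wild-type livers, which overlap (adjusted p = 0.846). Cks2, a small Cdk1-binding protein, averaged 25.9 ± 1.13 CPM in Mettl3-deficient livers and 26.5 ± 4.27 CPM in wild-type livers (SD, n = 3 each; adjusted p = 0.901). Zwint and Hjurp, of the kinetochore and of centromere loading, had log2 fold changes of -0.17 and -0.12 (adjusted p = 0.403 and 0.752).

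**Figure D3:**
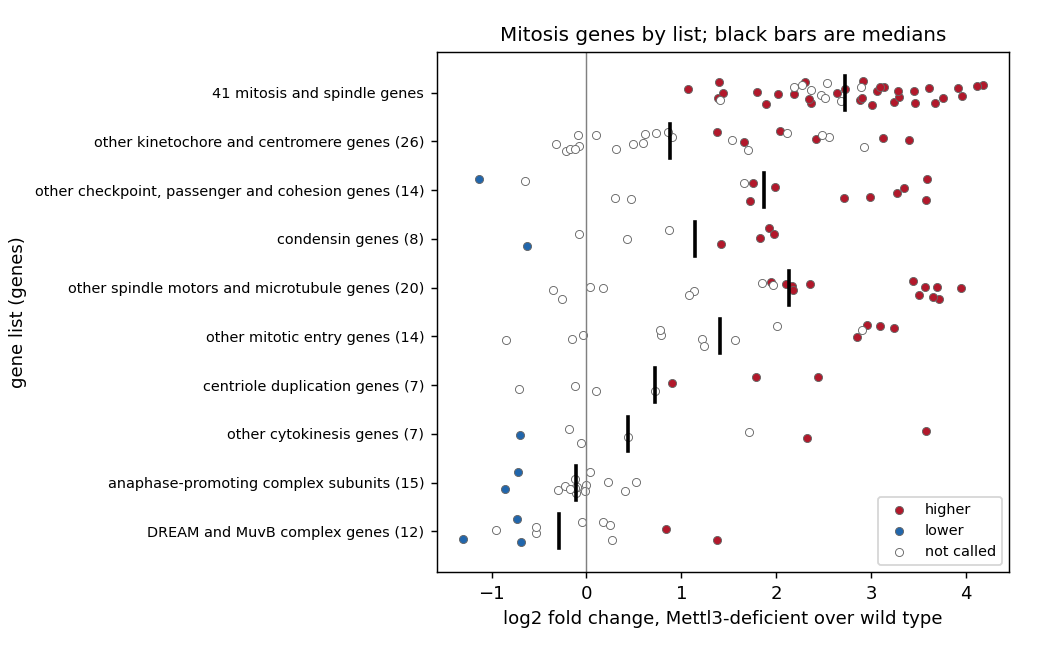
Log2 fold change (Mettl3-deficient over wild type) of the 41 mitosis and spindle genes, in the top line, and of the 123 genes in 9 lists of other mitosis genes; a point is a gene, red where it rose, blue where it fell and white where it was not called at an edgeR adjusted p under 0.05, and black bars are medians. The median of the 41 genes is 2.72, and those of the other lists lie between -0.29 and 2.13.

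Markers of the cell types of the liver were measured beside the 41 genes. Over all genes tested, 13.3% rose and 10.5% fell, so 1 call among 10 markers lies near those shares. Of 10 hepatocyte markers 0 rose and 4, Alb, Serpina1c, Hnf4a and Asgr1, fell, and their summed level was 65600 to 96500 CPM in Mettl3-deficient livers, against 155000 to 197000 CPM in wild-type livers; Alb averaged 44710 CPM in Mettl3-deficient livers and 129600 CPM in wild-type livers (edgeR adjusted p = 0.0172), and Trf 19900 CPM in Mettl3-deficient livers and 17850 CPM in wild-type livers (0.732). Of 7 tested monocyte and neutrophil markers 6 rose, with sums of 84.4, 110.4 and 97.0 CPM in Mettl3-deficient livers, against 50.5, 56.9 and 55.6 CPM in wild-type livers; Lyz2 and Ccr2 rose 1.64-fold and 2.74-fold (adjusted p = 0.0225 and 0.012). Of 10 Kupffer cell and macrophage markers 1, Cd68, rose, with sums of 469, 783 and 419 CPM in Mettl3-deficient livers, against 132, 406 and 476 CPM in wild-type livers; Cd5l and Clec4f had log2 fold changes of 1.04 and 0.36 (adjusted p = 0.219 and 0.594). With a library left out, 1 to 5 hepatocyte markers fell, 2 to 5 monocyte and neutrophil markers rose and 0 or 1 macrophage markers rose. Both sums of immune markers were highest in Mettl3-deficient replicate 2, which held the lowest Mettl3-deficient value in 30 of the 41 mitosis and spindle genes. The lowest macrophage sum was in wild type replicate 1, which was also lowest for the mitosis genes.

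Of 7 tested T and NK cell markers 0 rose and 1, Cd4, fell, with sums of 4.77 to 5.203 CPM in Mettl3-deficient livers, against 3.43 to 4.25 CPM in wild-type livers; Lck had a log2 fold change of 0.76 (adjusted p = 0.311), and Ncr1 had 0 counts in all 3 wild-type libraries. Of 6 B and plasma cell markers 1, Jchain, rose (2.95-fold, edgeR adjusted p = 0.0136), with sums of 8.02 to 9.14 CPM in Mettl3-deficient livers, against 4.10 to 5.72 CPM in wild-type livers, and Cd79b had a log2 fold change of 0.42 (0.48). Of 8 erythroid precursor markers only Alas2, Klf1 and Tfrc could be tested, while Slc4a1, Epb42, Gata1 and Rhag had 0 counts in at least 2 libraries each; Klf1 fell, Alas2 and Tfrc had log2 fold changes of -1.43 and 0.96 (adjusted p = 0.198 and 0.0936), and sums were 91.7 to 167 CPM in Mettl3-deficient livers and 78.4 to 185 CPM in wild-type livers. Of 8 endothelial markers 2, Ptprb and Lyve1, fell, with Ptprb at -0.72 and Clec4g at -0.42 on the log2 scale (adjusted p = 0.0157 and 0.112), and sums of 165 to 200 CPM in Mettl3-deficient livers and 188 to 279 CPM in wild-type livers. Of 8 stellate cell markers 0 were called, with Dcn at -0.01 and Col3a1 at 0.32 (adjusted p = 0.984 and 0.585), and sums of 328 to 646 CPM in Mettl3-deficient livers and 397 to 437 CPM in wild-type livers. Of 7 cholangiocyte markers 1, Sox9, rose, with Spp1 at 0.52 (adjusted p = 0.392), and sums of 91.2 to 248 CPM in Mettl3-deficient livers and 106 to 126 CPM in wild-type livers. With 13.3% of all genes tested higher and 10.5% lower, 1 call among 6 or 7 tested markers lies near those shares. Of the calls named here, those of Ccr2 and Serpina1c were made in all 6 fits that leave out a library. The other calls were lost without Mettl3-deficient replicate 1, apart from that of Lyz2, and those of Alb, Jchain, Ptprb, Lyz2, Hnf4a, Asgr1, Cd68 and Sox9 were lost without either of wild type replicates 2 and 3. Lyz2, Hnf4a, Asgr1, Cd68, Sox9 and Cd4 lost theirs without Mettl3-deficient replicate 2, Asgr1, Sox9 and Cd4 without Mettl3-deficient replicate 3, Cd4 without wild type replicate 1 or 2 and Lyve1 without wild type replicate 3. With library size alone, the calls of Hnf4a, Asgr1, Ptprb, Lyve1 and Cd4 were lost, and those of Alb, Serpina1c and Klf1 were kept. The part of any of these cell types in the levels of the mitosis and spindle genes was not tested.

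**Figure D4:**
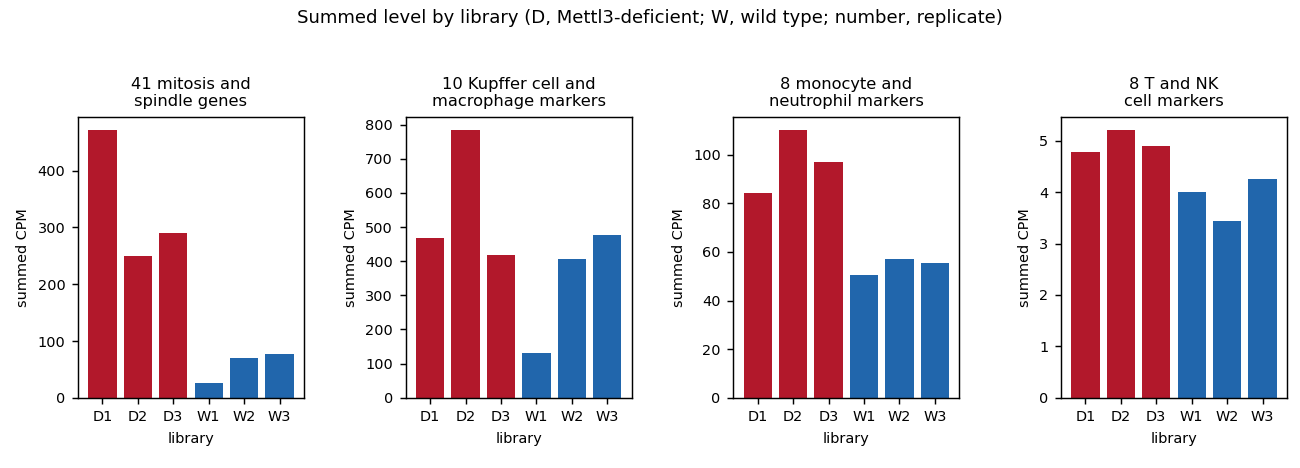
Summed level in CPM, on a linear axis from 0, of the 41 mitosis and spindle genes and of 3 marker lists in each library, Mettl3-deficient (D1 to D3) left of wild type (W1 to W3); a bar is 1 library. The 41 genes sum highest in Mettl3-deficient replicate 1, at 471 CPM, and the macrophage and the monocyte and neutrophil markers in Mettl3-deficient replicate 2, at 783 and 110.4 CPM.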

How the data were processed

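Total RNA of mouse liver, in 6 samples, was depleted of ribosomal RNA and sequenced from strand-marking libraries, per the labels' protocols. The authors deposited unnormalised counts per gene, made with HISAT2 and featureCounts on mm10, per the submitters' processing notes; the sources used here name no versions, annotation or strand setting. Each library was deposited with 31960205 to 36025772 counts over 27179 genes, and counting error alone limits the precision of low genes. Symbols came from RefSeq GRCm38.p6 (25275 identifiers matched), exon lengths from the GENCODE annotation of the same build and promoter windows from RefSeq.

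Samples were grouped by labelled genotype. The test was made with edgeR 4.0.16 in R 4.3.3 (TMM factors, group as the only term, robust quasi-likelihood F test, two-sided, genes kept by filterByExpr at a count of 10 and a total of 15), with Benjamini-Hochberg adjustment over 14380 genes and calls under 0.05. Every adjusted p is from this test, standard errors were derived from the fold change and F, and folds are Mettl3-deficient over wild type. The upper limit for a count of 0 is 3 counts and covers counting error only. It takes each count as an independent fragment, and would be higher if fragments were counted more than once. The test was tried on simulated counts with known changes. The members and gene lists were chosen with earlier results of these data known. All 41 members are named, with the 3 smallest p-values of each other list and the 2 most abundant markers of each cell type; any other gene was chosen after its values were seen, and some genes of these lists are not reported here. Alternatives were RLE factors, library size alone, DESeq2 1.42.0, limma-voom (limma 3.58.1), no filter, each library left out in turn, a covariate for Y-linked counts, a filter of 1 CPM in 3 samples, a replicate block, and a fit that dropped the 20 genes with most counts. Counts halved and rounded up were added after seeing the data.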

Additional observations from a re-analysis of the deposited data

How the results depend on the processing

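Over the 16 alternatives all 656 log2 fold changes of the 41 genes stayed above 0, and the number that rose was 28 to 40 other than in the fits that follow. Replicate numbers were shared across groups, and the labels do not say whether same-numbered libraries were paired. Such libraries did not deviate together (correlations of 0.08, -0.01 and 0.04 over genes). With so few libraries in each group, these correlations cannot decide whether they were paired. With the replicate number as a block 16 of the 41 rose. Leaving out 1 library gave 14 to 35 of the 41 higher (main value 32), 16 to 41 of the other mitosis genes higher and 2 to 7 lower (main values 42 and 8), and 840 to 1932 of all genes higher and 518 to 1582 lower (main values 1906 and 1514). Library size alone, which leaves out the correction for composition, gave 69 other mitosis genes higher and 1 lower, and 4810 of all genes higher and 595 lower. The median log2 fold change of the 41 was 3.20 with library size alone, 3.21 with limma-voom and 2.31 to 3.10 with a library left out. Genes without a call changed sign. With library size alone, Clec4g was 0.07, Dcn 0.44, Hjurp 0.34, Zwint 0.30, Cks2 0.44 and Spc24 0.39. Dcn was 0.004 with no filter and 0.002 with the covariate. With a library left out the values ran from -0.047 to 0.277 for Trf, -0.045 to 0.686 for Clec4f, -0.30 to 0.196 for Dcn, -0.018 to 0.557 for Col3a1, -0.331 to 0.062 for Hjurp, -0.123 to 0.103 for Cks2 and -0.334 to 0.152 for Spc24. The cause was not tested. Counts below about 10 limit the wild-type values of the low genes, among them the 10 members at 0 in wild type replicate 1.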
